A study of Mus musculus with 66 samples.

Results

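Naive B cells of the mouse spleen were compared after culture with anti-IgM, an antibody that crosslinks the B cell receptor of the IgM class, and after culture without stimulus. The comparison takes 8 of the 66 libraries of the series, chosen by their titles: 2 anti-IgM libraries at 2 h and 2 at 4 h, and 2 unstimulated libraries at 2 h and 2 at 4 h. All genes were members, and 10438 of the 23420 gene symbols in the files passed a filter on low values. The wider series followed naive and germinal centre (GC) B cells under anti-IgM, anti-CD40, IL-21 and combinations of them. All 8 libraries came from mice labelled IgM B1-8 BCR transgenic, on BALB/c and called MEG, so the stimulated and the unstimulated cells alike carried the receptor transgene. The cells were purified with beads. The label on treatment speaks only of GC B cells, and the antibody dose is not given in the sources used here.

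The B cell receptor consists of a membrane immunoglobulin bound to the CD79A and CD79B chains, which carry the signal inward. Crosslinking activates the kinases LYN, SYK and BTK, then phospholipase C, calcium release and the NFAT, MAP kinase and NF-kB routes, while phosphoinositide 3-kinase inactivates the FOXO factors that keep resting lymphocytes quiescent. Naive B cells are small, circulating cells, and receptor crosslinking starts their growth and changes the receptors that place them in lymphoid tissue, whereas T cell help through CD40 is delivered later and by a separate set of adaptors.

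Values are the log2 values that the authors deposited, called levels here. Differences between levels are log2 fold changes, called effects here, and are given ± standard error from limma's moderated test fitted across all genes. The effect of anti-IgM is its level minus the level without stimulus, averaged over 2 h and 4 h unless a time is named, with n = 2 libraries in each group and time. A gene was called changed at a Benjamini-Hochberg adjusted p under 0.05. Within a group and time, the library numbered 1 is given before the library numbered 2. The labels do not say whether the 2 libraries of a group came from different animals. A p-value here therefore reflects how much these libraries varied, which may be technical variation. The files hold no counts, so the depth behind a value is unknown.

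The cells carried the transcripts of B cells. Of 10 naive B cell markers 9 were found in the files, and all 9 were tested. In unstimulated cells the level of Cd79a, a chain of the receptor complex, was 11.82 and 11.64 at 2 h and 12.28 and 11.79 at 4 h, and that of Ms4a1, which encodes CD20, was 10.61 and 10.27 at 2 h and 10.51 and 10.41 at 4 h. Transcripts that define T cells were near the bottom of the scale: Cd3d, Cd3e, Cd3g, Cd4, Cd8a, Lat and Bcl11b were not above a level of 1 in at least 2 of the 8 libraries and were not tested. The summed linear level (2 to the power of the deposited value) of 11 myeloid markers ran from 88.9 to 407.0 over the anti-IgM libraries and from 94.4 to 552.6 over the unstimulated libraries, so the groups overlapped. Of the 9 myeloid markers tested, 1 was called, Ccr2, which was lower with anti-IgM. The sum of 6 NK cell markers ran from 20.1 to 105.1 with anti-IgM and from 17.4 to 79.2 without stimulus, and that of 4 platelet markers was at most 4.5 in any library. Markers of marginal zone B cells, 5 in number, summed to 910.3 to 1361.1 with anti-IgM and 1028.5 to 1754.5 without stimulus. For 4 erythroid markers the sums were 204.2 to 661.6 and 405.3 to 635.1. The part of such cells in the results was not tested. In bulk samples such as these, fewer cells of a type and less RNA per cell cannot be told apart.

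Anti-IgM changed 55.5% of the genes tested. With it 2994 genes were higher (28.7% of those tested) and 2804 were lower (26.9%). Of these, 778 rose and 889 fell by more than 1 on the log2 scale, and 160 rose and 149 fell by more than 2. All 4 anti-IgM libraries lay above all 4 unstimulated libraries for 857 genes (8.21%) and below them for 970 genes (9.29%). The fit treats libraries of the same number as a block, because they shared gene-wise offsets. Without that block 1443 genes were called higher and 1402 lower, all of them among the genes called with it and in the same direction. The median effect over all genes was 0.001, and the deposited libraries had near-equal distributions, so each change is relative to the typical gene.

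Genes named by the size of a difference, here and below, are the largest among called genes with a mean level of at least 4, so a gene with low levels can have a larger effect. By that rule the 12 largest rises were led by genes of secreted proteins. Spp1, which encodes the secreted phosphoprotein osteopontin (GRCm38 chromosome 5, 104435118 to 104441050, plus strand), had levels of 8.31 and 7.48 at 2 h and 7.89 and 7.01 at 4 h with anti-IgM, against 4.21 and 3.59 at 2 h and 2.81 and 2.21 at 4 h without stimulus. Every anti-IgM library stood above every unstimulated one, and the effect was 4.47 ± 0.14, adjusted p = 2.02e-12. Plau, the urokinase plasminogen activator, had levels of 8.58 and 10.02 at 2 h and 8.05 and 9.28 at 4 h with anti-IgM, against 4.98 and 6.0 at 2 h and 3.80 and 4.39 at 4 h without stimulus. These groups did not overlap either, with an effect of 4.19 ± 0.12, adjusted p = 2.02e-12. Spp1 and Plau are also transcribed by myeloid cells. The myeloid marker sums, given above, varied within each group and overlapped between the groups, and the part of such cells in these rises was not tested. The other 10 of the 12 largest rises had effects from 3.43 down to 2.56. They were Pmp22, a membrane protein of myelin, Bcat1, an enzyme that transaminates branched-chain amino acids, Nr4a2, an orphan nuclear receptor, Fam83g, Sh2d1b1, an adaptor of SLAM receptors, Ahr, the aryl hydrocarbon receptor, Fabp5, a fatty acid binding protein, Fam46c, a poly(A) polymerase, Lmna, which encodes the A-type lamins, and Serpinb9, an inhibitor of granzyme B. For 11 of the 12 the 2 groups did not overlap. The exception was Lmna, whose level was lower at 4 h than at 2 h in both conditions, with 8.50 and 8.60 at 2 h and 6.12 and 5.67 at 4 h with anti-IgM, against 5.55 and 5.71 at 2 h and 3.56 and 3.74 at 4 h without stimulus.

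By the same rule, the 12 largest falls were led by a costimulatory ligand. Icosl, the ligand of the T cell costimulator ICOS (chromosome 10, 78069302 to 78083913, plus strand), had levels of 3.66 and 4.75 at 2 h and 2.79 and 3.64 at 4 h with anti-IgM, against 6.90 and 7.18 at 2 h and 7.86 and 7.89 at 4 h without stimulus. No anti-IgM library reached the lowest unstimulated one, and the effect was -3.75 ± 0.15, adjusted p = 2.73e-11. Cd55, which protects cells from complement, had levels of 7.77 and 7.15 at 2 h and 5.73 and 6.01 at 4 h with anti-IgM, against 10.20 and 9.84 at 2 h and 10.08 and 9.96 at 4 h without stimulus. Its groups were likewise apart, with an effect of -3.35 ± 0.13, adjusted p = 5.3e-11. Il10ra, the ligand-binding chain of the IL-10 receptor, fell with an effect of -3.21 ± 0.13. Ltb, which encodes lymphotoxin beta, and Il16, the precursor of interleukin 16, fell with effects of -2.91 ± 0.08 and -3.04 ± 0.08. Others among the 12 were Cnp, Cpm, a membrane carboxypeptidase, March1, a ubiquitin ligase that removes MHC class II and CD86 from the surface, Rnase6, a ribonuclease, Sgms1, a sphingomyelin synthase, and Spata13, a guanine nucleotide exchange factor. All 12 had non-overlapping groups, and their effects ran from -3.75 to -2.86.

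**Figure D1:**
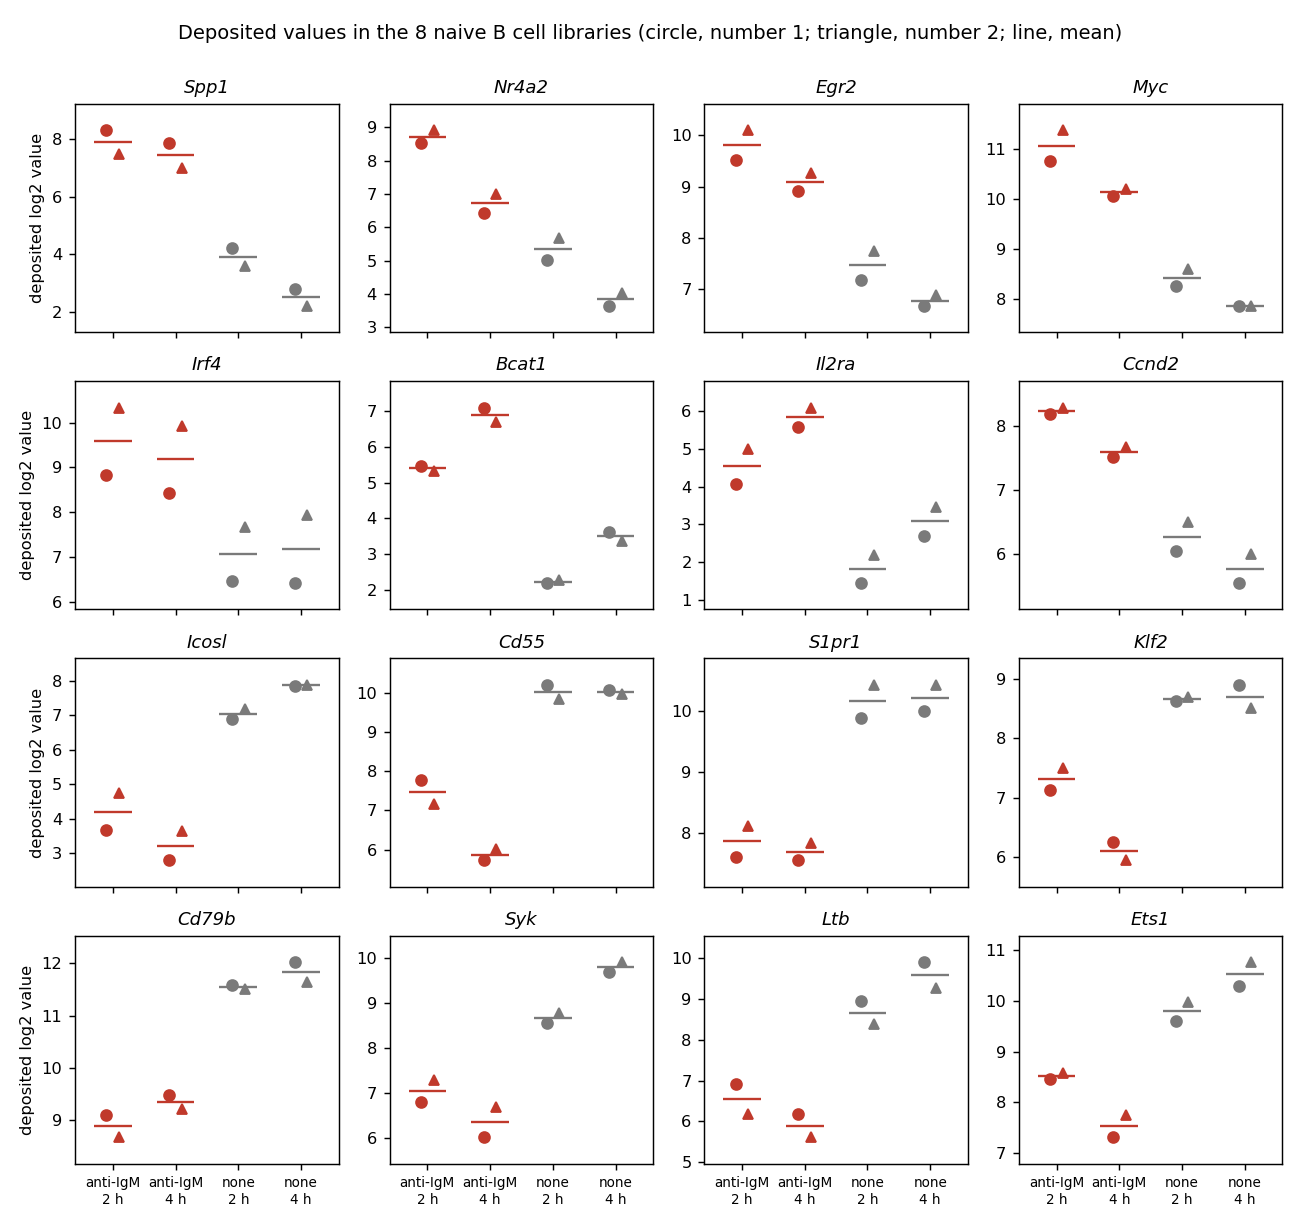
Deposited log2 values (vertical axes, a separate scale in each panel) of 16 genes in the 8 naive B cell libraries, with anti-IgM at 2 h and 4 h in red and no stimulus at 2 h and 4 h in grey. Circles are libraries numbered 1, triangles libraries numbered 2 and lines means of 2. In each panel shown the anti-IgM libraries stand apart from the unstimulated ones, above them for 8 genes and below them for 8.

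Receptor crosslinking is known to induce immediate early genes, which need no new protein for their induction and many of which encode transcription factors. Of 27 such genes listed, 26 were tested, and 19 rose and 6 fell, shares to be read against 28.7% and 26.9% of all genes tested. Their median effect was 1.75, and 14 higher and 4 lower were called without the block. Egr2, a zinc finger factor of lymphocyte activation, had levels of 9.53 and 10.09 at 2 h and 8.92 and 9.27 at 4 h with anti-IgM, against 7.17 and 7.75 at 2 h and 6.67 and 6.87 at 4 h without stimulus. Its lowest anti-IgM library stood above its highest unstimulated one, and the effect was 2.34 ± 0.09, adjusted p = 1.62e-11. Myc, which drives growth, had levels of 10.74 and 11.36 at 2 h and 10.06 and 10.20 at 4 h with anti-IgM, against 8.26 and 8.60 at 2 h and 7.87 and 7.87 at 4 h without stimulus. The groups did not overlap, and the effect was 2.44 ± 0.10, adjusted p = 4.54e-11. Nr4a2 had levels of 8.54 and 8.90 at 2 h and 6.44 and 6.99 at 4 h with anti-IgM, against 5.02 and 5.67 at 2 h and 3.64 and 4.03 at 4 h without stimulus, with an effect of 3.13 ± 0.12, adjusted p = 2.16e-11. Its level was lower at 4 h than at 2 h in both conditions, and the difference between the times' effects was not called. Fosl1, a partner of JUN proteins in AP-1, was low in unstimulated cells, at 1.40 and 1.63 at 2 h and 1.32 and 0.99 at 4 h. With anti-IgM it stood at 6.30 and 6.66 at 2 h and 4.66 and 5.18 at 4 h, an effect of 4.36 ± 0.14.

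Egr1, Nr4a1 and Egr3, of the same families, rose too, and for Egr1 and Nr4a1 the effect was smaller at 4 h than at 2 h. Egr1 had an effect of 1.80 ± 0.13 at 2 h and of 0.85 ± 0.13 at 4 h, and the difference between the times was called (-0.95 ± 0.18, adjusted p = 0.00181). The effect of Nr4a1, another orphan nuclear receptor and a common reporter of receptor signalling, was 2.27 ± 0.21 at 2 h and 1.31 ± 0.21 at 4 h, again a called difference (-0.96 ± 0.30, adjusted p = 0.0352). Egr3 rose with an effect of 2.42 ± 0.27, with levels of 2.97 and 5.99 at 2 h and 2.43 and 4.69 at 4 h with anti-IgM, against 0.75 and 2.6 at 2 h and 0.31 and 2.72 at 4 h without stimulus. The libraries numbered 2 stood above those numbered 1 in every group, and without the block it was not called (adjusted p = 0.139). Jund and Junb, which are AP-1 subunits, were lower with anti-IgM, with effects of -1.37 ± 0.10 and -0.70 ± 0.09. The fall of Junb was not called without the block (adjusted p = 0.0876). By the test of the difference between the times, no member of the list had a higher effect at 4 h than at 2 h (11.4% of all genes did), and 11 had a lower one (9.90% of all genes did).

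The promoter of Egr2 is shown because it held a CArG box, the motif of serum response factor, which couples MAP kinase signals to immediate early genes. Motifs were sought on both strands of RefSeq promoter windows (GRCm38.p6), from 250 bases before to 50 after a transcription start. Of the 27 listed immediate early genes 21 had a window, and 2 of these 21 (9.5%) held a CArG box, against 1.5% of the 8433 genes tested that had a window and 1.6% of all 32851 windows. Egr2 has 5 windows, of which the first with a match is printed (chr10:67537316-67537615, plus strand), with the CArG box in capitals, which begins 72 bases before the start. The letters sought were CC, then A or T only, then GG. A match is a description of the letters only.
Egr2: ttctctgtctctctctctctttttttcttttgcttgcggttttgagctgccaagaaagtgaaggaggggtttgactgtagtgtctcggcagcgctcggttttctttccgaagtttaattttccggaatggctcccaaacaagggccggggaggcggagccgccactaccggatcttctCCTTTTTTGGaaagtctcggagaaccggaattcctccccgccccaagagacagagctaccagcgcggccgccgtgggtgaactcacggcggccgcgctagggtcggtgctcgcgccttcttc

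Of 13 feedback inhibitors of MAP kinase signalling listed, 11 were tested, and 6 rose and 1 fell (5 higher and 1 lower without the block). Of those tested 54.5% were higher and 9.09% lower, against 28.7% and 26.9% of all genes tested. Dusp14, a phosphatase, had levels of 4.81 and 4.02 at 2 h and 4.56 and 4.05 at 4 h with anti-IgM, against -0.73 and 0.87 at 2 h and -0.21 and 0.34 at 4 h without stimulus. Spry1, a Sprouty protein that restrains RAS signalling, had levels of 4.01 and 4.92 at 2 h and 3.85 and 4.41 at 4 h with anti-IgM, against -0.04 and 1.20 at 2 h and -0.42 and 0.89 at 4 h without stimulus. Both were at 1.20 or lower in all unstimulated libraries and at 3.85 or higher in all anti-IgM libraries. Their effects were 4.29 ± 0.32 and 3.89 ± 0.22, those of Spred1 and Dusp4 were 2.84 ± 0.20 and 1.86 ± 0.10, and Dusp5 fell with -0.49 ± 0.14.

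Genes of the receptor itself and of its proximal signalling chain mostly fell. Of 26 listed and tested, 3 rose and 19 fell, with a median effect of -0.71 (2 higher and 11 lower without the block). The list had 11.5% of members higher and 73.1% lower, against 28.7% and 26.9% of all genes tested. Cd79b, the second chain of the receptor complex, had levels of 9.10 and 8.67 at 2 h and 9.49 and 9.21 at 4 h with anti-IgM, against 11.60 and 11.51 at 2 h and 12.03 and 11.64 at 4 h without stimulus. The highest anti-IgM library was more than 2 log2 units under the lowest unstimulated one, and the effect was -2.58 ± 0.08, adjusted p = 2.02e-12. Syk, the kinase that binds the phosphorylated CD79 chains, had levels of 6.80 and 7.30 at 2 h and 6.02 and 6.71 at 4 h with anti-IgM, against 8.56 and 8.78 at 2 h and 9.69 and 9.92 at 4 h without stimulus. Its groups were apart, with a larger effect at 4 h (-3.44 ± 0.18) than at 2 h (-1.62 ± 0.18), a called difference (-1.82 ± 0.25, adjusted p = 0.000175). Dapp1, an adaptor that binds the lipid product of phosphoinositide 3-kinase, and Bank1, a scaffold of LYN and calcium channels, fell with effects of -2.09 ± 0.11 and -1.42 ± 0.09. Pik3ap1, the adaptor BCAP that recruits phosphoinositide 3-kinase, rose with 1.50 ± 0.12 and Blk, a SRC-family kinase, with 0.57 ± 0.10.

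Of 25 inhibitory receptors and phosphatases 6 rose and 16 fell (4 higher and 11 lower without the block). The list had 24% of members higher and 64% lower, against 28.7% and 26.9% of all genes tested, so its share of rises was near the background. Fcrla, an intracellular Fc receptor-like protein, had an effect of -2.85 ± 0.11, Sla, an adaptor that promotes receptor degradation, of -2.16 ± 0.12, and Fcgr2b, the inhibitory Fc receptor, of -1.92 ± 0.11. Cd5, a receptor that dampens antigen receptor signalling, ran against them. Its levels were 3.36 and 3.67 at 2 h and 2.66 and 2.74 at 4 h with anti-IgM, against -0.79 and -0.28 at 2 h and -0.65 and -0.62 at 4 h without stimulus, so that it was below 0 in all 4 unstimulated libraries and at or above 2.66 in all 4 anti-IgM libraries. The effect was 3.69 ± 0.24, adjusted p = 4.86e-09. Ptpn22, a phosphatase of SRC-family kinases, rose with 1.47 ± 0.09.

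Among 18 genes of calcium entry and NFAT, 4 rose and 10 fell (4 higher and 6 lower without the block). Averaged over the times, 22.2% of members were higher and 55.6% lower, against 28.7% and 26.9% of all genes tested. At 2 h 6 were higher and 4 lower (median effect 0.24), against 15.0% and 15.4% of all genes. At 4 h 4 were higher and 11 lower (median effect -0.67), against 28.1% and 24.1%. By the test of the difference between the times, 9 of the 18 had a lower effect at 4 h (9.90% of all genes did) and 0 a higher one. Orai1, the channel of store-operated calcium entry, had levels of 8.38 and 7.90 at 2 h and 7.98 and 7.33 at 4 h with anti-IgM, against 5.91 and 5.65 at 2 h and 6.23 and 5.70 at 4 h without stimulus. All anti-IgM libraries were above all unstimulated ones, with an effect of 2.03 ± 0.10, adjusted p = 1.63e-10. Nfatc1, whose own promoter NFAT is known to activate, rose with 1.40 ± 0.11, whereas Nfatc3 fell with -1.42 ± 0.11. Ppp3ca, a catalytic subunit of the phosphatase calcineurin, had an effect of 0.16 ± 0.14 at 2 h, which was not called, and of -2.02 ± 0.14 at 4 h, which was.

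Of 19 NF-kB subunits, inhibitors and targets 9 rose and 6 fell, with a median effect of 0.11 (5 higher and 2 lower without the block). The list had 47.4% of members higher and 31.6% lower, against 28.7% and 26.9% of all genes tested. At 2 h 10 were higher and 2 lower (median effect 0.35), against 15.0% and 15.4% of all genes. At 4 h 8 were higher and 8 lower (median effect -0.2), against 28.1% and 24.1%. By the test of the difference between the times, 6 had a lower effect at 4 h (9.90% of all genes did) and 0 a higher one. Nfkbie, which encodes the inhibitor IkB epsilon, rose to 9.20 and 9.36 at 2 h and 9.14 and 9.02 at 4 h with anti-IgM, against 7.62 and 7.66 at 2 h and 7.74 and 7.54 at 4 h without stimulus, an effect of 1.54 ± 0.08, adjusted p = 3.52e-10. Traf1, an adaptor of TNF receptors, rose with 1.03 ± 0.08, and Cd83, a surface protein of activated B cells, with 1.07 ± 0.10. Bcl3, an atypical IkB protein, ran the other way, with levels of 5.86 and 5.18 at 2 h and 5.04 and 4.39 at 4 h with anti-IgM, against 7.97 and 7.33 at 2 h and 8.09 and 7.28 at 4 h without stimulus. These groups did not overlap, and the effect was -2.55 ± 0.08, adjusted p = 4.27e-12. Birc3, a ubiquitin ligase of TNF receptor complexes, fell with -1.36 ± 0.08.

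Of 20 listed genes controlled by or allied with FOXO factors and KLF2, 19 were tested, and 1 rose and 13 fell, with a median effect of -0.99 (1 higher and 10 lower without the block). The list had 5.26% of members higher and 68.4% lower, against 28.7% and 26.9% of all genes tested. Klf2, a factor that maintains lymphocyte quiescence and recirculation, had levels of 7.14 and 7.50 at 2 h and 6.26 and 5.95 at 4 h with anti-IgM, against 8.63 and 8.69 at 2 h and 8.90 and 8.50 at 4 h without stimulus. The groups were apart at both times, and the effect was larger at 4 h (-2.6 ± 0.16) than at 2 h (-1.34 ± 0.16). Foxo1 fell with -0.90 ± 0.08. Ccng2, a cyclin-like protein of resting cells, Sesn1, a stress-responsive inhibitor of mTORC1, Btg2, an antiproliferative protein, and Tsc22d3, the glucocorticoid-induced leucine zipper protein, had effects between -2.32 and -1.90. Cited2, a transcriptional coregulator, rose with 0.85 ± 0.11.

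Receptors that place B cells in tissue changed in both directions, and 11 rose and 10 fell of 25 trafficking receptors and RGS proteins (9 higher and 7 lower without the block; 44% of members higher and 40% lower, against 28.7% and 26.9% of all genes tested). S1pr1, the receptor for sphingosine-1-phosphate that lets lymphocytes leave lymphoid organs and a gene that KLF2 is known to activate, had levels of 7.62 and 8.12 at 2 h and 7.56 and 7.84 at 4 h with anti-IgM, against 9.88 and 10.42 at 2 h and 9.99 and 10.41 at 4 h without stimulus. All anti-IgM libraries lay more than 1.5 log2 units below all unstimulated ones, with an effect of -2.39 ± 0.09, adjusted p = 1.16e-11. Gpr183, also called EBI2, which guides activated B cells to the border of the follicle, had levels of 10.87 and 10.77 at 2 h and 9.53 and 9.50 at 4 h with anti-IgM, against 8.45 and 8.54 at 2 h and 8.05 and 7.84 at 4 h without stimulus, and the groups did not overlap. Its effect was 1.95 ± 0.08, adjusted p = 2.85e-11. S1pr3, another sphingosine-1-phosphate receptor, rose with 2.35 ± 0.09.

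Of 18 genes of costimulation and antigen presentation tested, 5 rose and 8 fell (3 higher and 6 lower without the block). The share that rose, 27.8%, was near the background: the list had 27.8% of members higher and 44.4% lower, against 28.7% and 26.9% of all genes tested. Cd44, a hyaluronan receptor of activated lymphocytes, rose with 1.64 ± 0.09 and Cd274, which encodes PD-L1, with 1.09 ± 0.10. Icosl and March1 fell, as given above, and H2-DMa, which helps load peptide on MHC class II, fell with -1.34 ± 0.10. Cd86, a ligand of CD28, had levels of 10.75 and 10.25 at 2 h and 9.95 and 9.41 at 4 h with anti-IgM, against 10.88 and 10.25 at 2 h and 9.31 and 8.88 at 4 h without stimulus. Those groups overlapped, and the effect of 0.26 ± 0.08 was not called without the block (adjusted p = 0.546), after cyclic loess scaling (adjusted p = 0.181), with the naive and GC libraries in 1 fit (adjusted p = 0.0589) or without the unstimulated 4 h library numbered 1 (adjusted p = 0.0504). Cd69, an early activation marker, had an effect of -0.15 ± 0.08, adjusted p = 0.128, and its levels in stimulated cells, 8.63 and 8.31 at 2 h and 7.59 and 7.39 at 4 h, overlapped with those without stimulus, 8.85 and 8.62 at 2 h and 7.56 and 7.48 at 4 h. Cd74 and H2-Ab1 each had the same deposited value in all 4 conditions of a number, 14.58 in number 1 and 14.32 in number 2 for Cd74, so a change of these most abundant transcripts could not be seen in the files.

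Of 31 genes of amino acid uptake, serine and one-carbon metabolism and the ATF4 response to amino acid shortage, 30 were tested, and 26 rose and none fell, with a median effect of 1.43 (19 higher and 0 lower without the block). The list had 86.7% of members higher and 0% lower, against 28.7% and 26.9% of all genes tested. Bcat1 had levels of 5.46 and 5.34 at 2 h and 7.11 and 6.72 at 4 h with anti-IgM, against 2.18 and 2.26 at 2 h and 3.62 and 3.37 at 4 h without stimulus. It was higher at 4 h than at 2 h in both conditions, every anti-IgM library stood above every unstimulated one, and the effect was 3.30 ± 0.12, adjusted p = 8.78e-12. Psat1, an enzyme of serine synthesis, had levels of 6.57 and 6.74 at 2 h and 8.68 and 8.60 at 4 h with anti-IgM, against 5.07 and 5.41 at 2 h and 5.48 and 5.90 at 4 h without stimulus. Its effect was larger at 4 h (2.95 ± 0.14) than at 2 h (1.41 ± 0.14), a called difference. Slc38a1, a glutamine transporter, rose with 1.86 ± 0.09 and Shmt1, the cytosolic serine hydroxymethyltransferase, with 1.98 ± 0.09. The 4 members that did not pass the test were Cebpg (0.10 ± 0.10), Mthfd1l (0.20 ± 0.10), Cth (0.57 ± 0.30) and Slc38a2 (0.04 ± 0.08).

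ATF4 is known to bind C/EBP-ATF response elements, for which the letters TGATGNAA were sought on both strands. Of the 26 list members with a promoter window 6 (23.1%) held them, against 2.8% of the 8433 genes tested that had a window and 4.0% of all 32851 windows. Shares were close to this in the BCL2 family (21.4%) and the NF-kB list (20.0%). Over the lists they ran from 0.0% (MAPK feedback, among others) to 33.3% (translation initiation and tRNA charging). The 4 windows below, with the matches in capitals, were picked after the values were seen, because each holds a match and belongs to a gene that rose. Chac1, which degrades glutathione (chr2:119350992-119351291, plus strand), had an effect of 1.98 ± 0.14. Asns, asparagine synthetase (chr6:7693160-7693459, minus strand), had an effect of 1.19 ± 0.10. Trib3, a pseudokinase (chr2:152344011-152344310, minus strand), had 2.34 ± 0.19, and its match lies after the start. Slc7a11, the cystine transporter (chr3:50443564-50443863, minus strand), had 1.44 ± 0.36 at levels no higher than 2.33, and its window holds 2 matches. All windows are RefSeq GRCm38.p6, written 5′ to 3′ on the gene's strand.
Chac1: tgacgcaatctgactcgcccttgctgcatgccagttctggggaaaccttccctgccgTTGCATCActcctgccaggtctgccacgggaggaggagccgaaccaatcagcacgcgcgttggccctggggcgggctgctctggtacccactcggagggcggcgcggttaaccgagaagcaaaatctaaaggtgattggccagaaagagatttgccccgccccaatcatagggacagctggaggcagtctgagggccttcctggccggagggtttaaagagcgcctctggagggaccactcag
Asns: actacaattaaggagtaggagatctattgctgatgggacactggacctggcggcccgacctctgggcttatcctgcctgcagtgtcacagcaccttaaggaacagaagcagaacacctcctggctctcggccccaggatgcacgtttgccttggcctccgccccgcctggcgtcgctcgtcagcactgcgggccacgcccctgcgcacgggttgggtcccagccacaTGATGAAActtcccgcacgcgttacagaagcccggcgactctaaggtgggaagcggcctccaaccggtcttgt
Trib3: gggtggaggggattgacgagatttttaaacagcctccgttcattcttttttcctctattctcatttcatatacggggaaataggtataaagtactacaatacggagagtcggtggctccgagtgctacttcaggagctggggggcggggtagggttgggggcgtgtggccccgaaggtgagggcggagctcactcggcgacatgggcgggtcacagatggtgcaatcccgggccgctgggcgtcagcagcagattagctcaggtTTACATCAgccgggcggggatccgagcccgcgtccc
Slc7a11: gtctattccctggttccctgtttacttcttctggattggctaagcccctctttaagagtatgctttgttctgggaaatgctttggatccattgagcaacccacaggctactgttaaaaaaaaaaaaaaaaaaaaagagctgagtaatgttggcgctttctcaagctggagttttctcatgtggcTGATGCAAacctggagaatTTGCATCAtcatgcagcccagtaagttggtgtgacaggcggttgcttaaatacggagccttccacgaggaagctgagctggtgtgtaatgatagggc

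Of 19 genes of glycolysis and glucose uptake 12 rose and 1 fell (63.2% and 5.26%, against 28.7% and 26.9% of all genes tested). Ldha, lactate dehydrogenase A, had levels of 11.86 and 11.59 at 2 h and 12.96 and 12.27 at 4 h with anti-IgM, against 11.32 and 10.69 at 2 h and 10.98 and 10.25 at 4 h without stimulus, with non-overlapping groups and an effect of 1.36 ± 0.09, adjusted p = 6.77e-09. Slc16a1, a lactate transporter, rose with 1.99 ± 0.10, Hk2, a hexokinase, with 1.95 ± 0.12, and Pfkp, a phosphofructokinase, with 1.16 ± 0.08. The fall of Pdk1, a kinase that restrains pyruvate dehydrogenase, was small (-0.53 ± 0.20, adjusted p = 0.0353). It was not called without the block, without a filter on low values, with plain moderation or without any 1 of 7 of the 8 libraries, the exception being the anti-IgM library numbered 1 at 2 h, with adjusted p between 0.0561 and 0.179. Without the block, 7 of the 19 were called higher and 0 lower.

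Of 20 genes of nucleotide synthesis 14 rose and 1 fell (7 higher without the block). The list had 70% of members higher and 5% lower, against 28.7% and 26.9% of all genes tested. Umps, which makes uridine monophosphate, had levels of 8.41 and 8.22 at 2 h and 8.39 and 8.02 at 4 h with anti-IgM, against 7.37 and 7.23 at 2 h and 6.28 and 5.99 at 4 h without stimulus. Its level was nearly the same at both times with anti-IgM and lower at 4 h than at 2 h without stimulus, and the effect was 1.54 ± 0.08, adjusted p = 2.2e-10. Ctps, Ppat and Impdh1, enzymes of CTP, purine and guanine nucleotide synthesis, rose with effects between 1.10 and 1.36. The list's only fall was that of Rrm2, a subunit of ribonucleotide reductase used in S phase (-0.35 ± 0.11, adjusted p = 0.0124), and that call was lost without the block (adjusted p = 0.367), without a filter on low values (adjusted p = 0.0658) and, narrowly, without any 1 of 3 libraries numbered 2, namely the anti-IgM libraries at 2 h and 4 h and the unstimulated library at 2 h (adjusted p from 0.0503 to 0.0513).

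Of 24 genes of cholesterol and fatty acid synthesis 19 rose and 2 fell (12 higher and 0 lower without the block). The list had 79.2% of members higher and 8.33% lower, against 28.7% and 26.9% of all genes tested. Cyp51, a demethylase of lanosterol, had levels of 7.86 and 7.72 at 2 h and 9.12 and 8.84 at 4 h with anti-IgM, against 6.72 and 6.55 at 2 h and 7.61 and 7.48 at 4 h without stimulus. Levels were higher at 4 h than at 2 h in both conditions, and the effect was 1.30 ± 0.08, adjusted p = 1.38e-09. Insig1, a sensor that holds the sterol regulator SCAP in the endoplasmic reticulum, and Sqle, squalene epoxidase, rose with 1.27 ± 0.09 and 1.10 ± 0.09. The members that fell were Scd1 and Scd2, stearoyl-CoA desaturases, with -0.64 ± 0.12 and -0.70 ± 0.13, and neither was called without the block. Of 5 polyamine genes tested 4 rose, among them Srm, spermidine synthase, with 1.35 ± 0.08, and Odc1, ornithine decarboxylase, with 0.96 ± 0.08, and Sat1, which acetylates polyamines for export, fell with -0.34 ± 0.09. The call of Sat1 was lost without the block (adjusted p = 0.579). Of the polyamine genes 80% were higher and 20% lower, against 28.7% and 26.9% of all genes tested.

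Of the 27 tested members of the ribosome biogenesis list 12 were higher at 2 h (15.0% of all genes) and 26 at 4 h (28.1% of all genes), and none was lower at either time. For 22 of the 27 the effect was larger at 4 h than at 2 h by the test of that difference, which called 11.4% of all genes higher. Without the block that test called 77 of all genes higher, in place of 1194, and the count in this list was not computed. Nop16, a nucleolar protein of the large subunit, had levels of 9.01 and 8.48 at 2 h and 8.64 and 8.18 at 4 h with anti-IgM, against 8.43 and 7.99 at 2 h and 6.81 and 6.23 at 4 h without stimulus. At 2 h the lowest anti-IgM library was just above the highest unstimulated one, and at 4 h the level had changed little with anti-IgM and was lower without stimulus. Rrp9 and Mrto4, assembly factors of the small and large subunit, had the same form. The mean level of Rrp9 was 8.18 at 2 h and 7.91 at 4 h with anti-IgM, against 7.47 at 2 h and 6.16 at 4 h without stimulus, and that of Mrto4 was 7.20 at 2 h and 7.01 at 4 h with anti-IgM, against 6.59 at 2 h and 5.25 at 4 h without stimulus. Over the list the median change from 2 h to 4 h was -0.10 in stimulated cells and -0.93 in unstimulated cells, and 21 of the 27 were called lower at 4 h than at 2 h in the unstimulated cells, where 22.8% of all genes were called lower and 20.0% higher. Averaged over the times, 26 of the 27 were higher with anti-IgM, with a median effect of 0.77, and 20 of them were called without the block.

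MYC is known to bind the E-box CACGTG in genes of ribosome production. Of the 24 list members with a promoter window 5 (20.8%) held this motif, against 12.5% of the 8433 genes tested that had a window and 7.2% of all 32851 windows. The share was not particular to this list, as it was also 20.8% for the cytokine and TNF receptors. Over the lists it ran from 0.0% (inhibitory receptors and phosphatases) to 46.7% (translation initiation and tRNA charging). The windows of Nop2, a methyltransferase of ribosomal RNA (chr6:125131633-125131932, plus strand), and of Rrn3, an initiation factor of RNA polymerase I (chr16:13780449-13780748, plus strand), are shown with the E-boxes in capitals and were picked after the values were seen. Nop2 had an effect of 0.92 ± 0.10 and Rrn3, whose window holds 2 E-boxes, of 0.66 ± 0.10.
Nop2: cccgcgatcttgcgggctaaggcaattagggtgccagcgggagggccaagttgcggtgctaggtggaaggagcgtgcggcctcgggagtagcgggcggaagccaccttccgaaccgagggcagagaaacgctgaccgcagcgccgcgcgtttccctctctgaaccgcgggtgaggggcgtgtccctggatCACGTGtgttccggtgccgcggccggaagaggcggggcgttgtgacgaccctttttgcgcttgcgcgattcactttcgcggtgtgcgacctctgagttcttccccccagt
Rrn3: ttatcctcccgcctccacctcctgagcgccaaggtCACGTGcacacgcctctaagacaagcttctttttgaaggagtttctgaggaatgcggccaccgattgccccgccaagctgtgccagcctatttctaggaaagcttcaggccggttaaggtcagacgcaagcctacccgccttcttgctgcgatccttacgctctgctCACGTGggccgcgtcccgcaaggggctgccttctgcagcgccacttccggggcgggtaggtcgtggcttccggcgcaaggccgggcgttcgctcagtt

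Genes of translation initiation and tRNA charging differed from this pattern in unstimulated cells. Of 20, 5 were higher at 2 h (15.0% of all genes) and 19 at 4 h (28.1% of all genes), and none was lower. Here the median change from 2 h to 4 h was 1.14 in stimulated cells and 0.19 in unstimulated cells. Eif4ebp1, which binds the cap-binding protein eIF4E and is a target of ATF4, had levels of 5.96 and 5.22 at 2 h and 8.24 and 7.29 at 4 h with anti-IgM, against 5.79 and 4.92 at 2 h and 6.31 and 5.46 at 4 h without stimulus. At 2 h the groups overlapped, and at 4 h the anti-IgM libraries stood well above the unstimulated ones, with an effect of 1.87 ± 0.14, adjusted p = 3.63e-08. Eif4a1, an RNA helicase of initiation, rose with 1.06 ± 0.09, Sars, seryl-tRNA synthetase, with 0.74 ± 0.08, and Eif2s1, a subunit of eIF2, with 0.75 ± 0.08. Averaged over the times, the calls of Eif4ebp1 and Eif2s1 were lost without the block (adjusted p = 0.0557 and 0.0588). Of the 15 members with a promoter window 7 held the E-box (46.7%) and 5 the C/EBP-ATF letters (33.3%). The shares were 12.5% and 2.8% of the 8433 genes tested that had a window. A match describes the letters only.

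**Figure D2:**
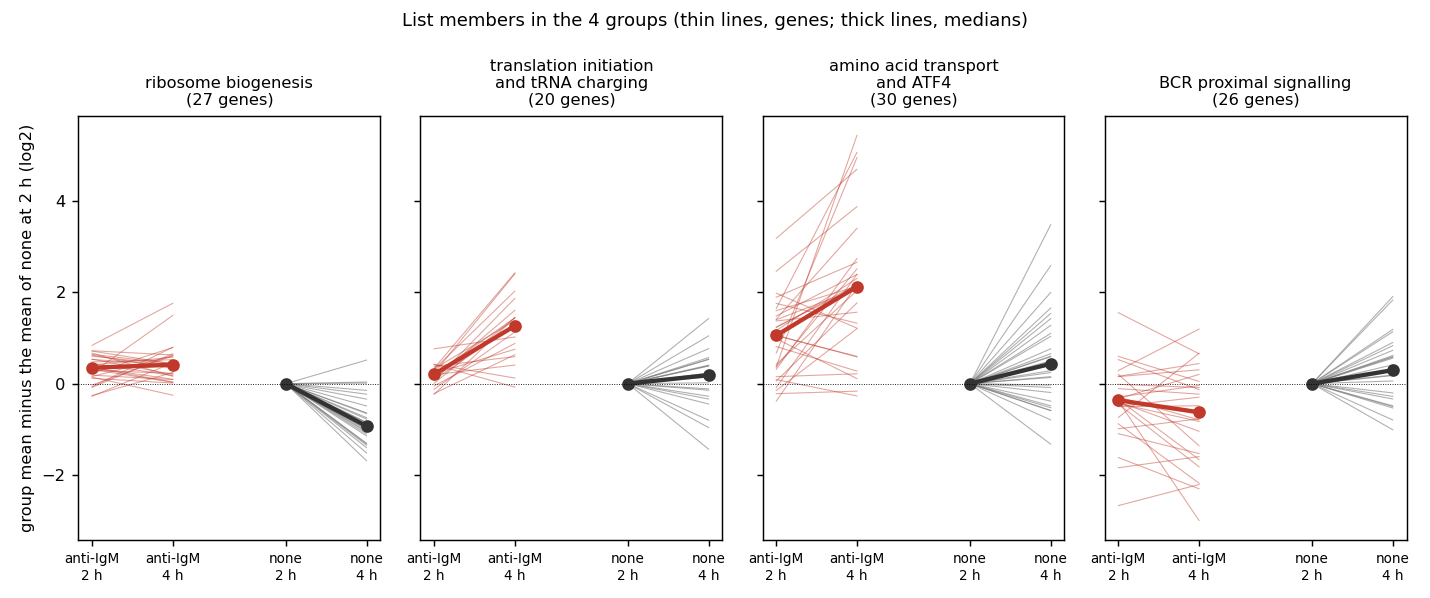
Members of 4 gene lists in the 4 groups of naive B cells, as the group mean of the deposited log2 value minus the same gene's mean without stimulus at 2 h (vertical axis). Thin lines are genes and thick lines medians, with anti-IgM in red and no stimulus in grey; ribosome biogenesis genes stay level with anti-IgM and drop without stimulus (medians of the change -0.10 and -0.93), whereas genes of translation and tRNA charging rise with anti-IgM (medians 1.14 and 0.19).

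Of 19 chaperones 15 rose and 2 fell (9 higher and 1 lower without the block). The list had 78.9% of members higher and 10.5% lower, against 28.7% and 26.9% of all genes tested. Hspd1, the mitochondrial chaperonin, had levels of 9.0 and 9.32 at 2 h and 9.74 and 10.02 at 4 h with anti-IgM, against 8.80 and 8.85 at 2 h and 7.95 and 8.36 at 4 h without stimulus, and Dnajb9, a co-chaperone of the endoplasmic reticulum, had 7.16 and 7.67 at 2 h and 6.31 and 6.65 at 4 h with anti-IgM, against 5.12 and 5.51 at 2 h and 4.45 and 4.63 at 4 h without stimulus. Neither gene's groups overlapped, and the effects were 1.03 ± 0.08 and 2.01 ± 0.09. The 2 members that fell also act in the endoplasmic reticulum, Pdia4, a disulfide isomerase, with -0.72 ± 0.09, and Herpud1, a factor of protein degradation, with -0.42 ± 0.08, the second not called without the block (adjusted p = 0.295). Of 6 heat shock genes that also respond to handling of cells 3 were called higher (50%, against 28.7% of all genes tested). Without the block 1 of the 3 was called. The 3 were Hsph1 (0.49 ± 0.13), Hspb1 (1.03 ± 0.28) and Hspa1a (0.92 ± 0.33). The call of Hspa1a was lost without a filter on low values (adjusted p = 0.0747) and without any 1 of 5 of the 8 libraries (adjusted p from 0.0555 to 0.163): the anti-IgM library numbered 1 at 2 h, both anti-IgM libraries at 4 h, the unstimulated library numbered 1 at 2 h and that numbered 2 at 4 h.

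Genes of G1 and S phase moved both ways, and 8 rose and 10 fell of 23 tested (6 higher and 7 lower without the block). The list had 34.8% of members higher and 43.5% lower, against 28.7% and 26.9% of all genes tested. Ccnd2, the D-type cyclin that B cells use to leave G0, had levels of 8.19 and 8.29 at 2 h and 7.51 and 7.67 at 4 h with anti-IgM, against 6.03 and 6.49 at 2 h and 5.54 and 6.0 at 4 h without stimulus. Its groups were apart, and the effect was 1.90 ± 0.09, adjusted p = 9.96e-11, and the effects at 2 h (1.98 ± 0.12) and 4 h (1.82 ± 0.12) did not differ by the test of their difference. Cdk6, a partner of D-type cyclins, rose with 1.40 ± 0.13. Cdkn2d, an inhibitor of CDK4 and CDK6, fell with -2.07 ± 0.15 and Ccnd3 with -0.95 ± 0.09. The BCL2 family was divided too, and 7 rose and 5 fell of 14 tested (4 higher and 2 lower without the block). The family had 50% of members higher and 35.7% lower, against 28.7% and 26.9% of all genes tested. Bcl2a1b and Bcl2a1d, near-identical copies of the antiapoptotic gene Bcl2a1 whose reads cannot be fully told apart, rose with 1.72 ± 0.12 and 1.58 ± 0.12. Bcl2l1, which encodes BCL-XL, rose with 1.47 ± 0.13, whereas Bcl2 fell with -1.35 ± 0.12. The levels of Bcl2 were 5.26 and 5.24 at 2 h and 3.83 and 3.99 at 4 h with anti-IgM, against 5.72 and 6.04 at 2 h and 5.67 and 6.27 at 4 h without stimulus, and its groups did not overlap (adjusted p = 1.28e-07). Bad, a proapoptotic member, fell with -1.12 ± 0.22.

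Among 26 transcription factors of B cell fate, 7 rose and 12 fell (6 higher and 8 lower without the block). The list had 26.9% of members higher and 46.2% lower, against 28.7% and 26.9% of all genes tested, so its share of rises was near the background. Irf4, whose dose directs activated B cells toward germinal centre or plasma cell fate, had levels of 8.83 and 10.34 at 2 h and 8.43 and 9.94 at 4 h with anti-IgM, against 6.45 and 7.67 at 2 h and 6.41 and 7.94 at 4 h without stimulus. The groups did not overlap, although libraries numbered 2 stood above those numbered 1 in every group, and the effect was 2.26 ± 0.11, adjusted p = 1.07e-10. Bhlhe40 rose with 1.88 ± 0.09 and Ahr with 2.72 ± 0.13. Ets1, which restrains plasma cell differentiation, had levels of 8.46 and 8.58 at 2 h and 7.31 and 7.76 at 4 h with anti-IgM, against 9.60 and 9.98 at 2 h and 10.29 and 10.77 at 4 h without stimulus. All anti-IgM libraries were below all unstimulated ones, with an effect of -2.13 ± 0.10, adjusted p = 1.12e-10. It was larger at 4 h (-2.99 ± 0.14) than at 2 h (-1.27 ± 0.14). Prdm1, the plasma cell regulator BLIMP1 (0.24 ± 0.18, adjusted p = 0.268), Bcl6, the germinal centre repressor (-0.16 ± 0.13, adjusted p = 0.327), and Bach2, a repressor of Prdm1 (0.16 ± 0.12, adjusted p = 0.286), did not pass the test.

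Of 21 cytokine and chemokine genes listed, 14 were tested, and 8 rose and 4 fell (7 higher and 3 lower without the block). The list had 57.1% of members higher and 28.6% lower, against 28.7% and 26.9% of all genes tested. Vegfa, an angiogenic factor, had levels of 3.13 and 4.38 at 2 h and 3.66 and 4.54 at 4 h with anti-IgM, against -0.98 and 0.22 at 2 h and 0.80 and 1.83 at 4 h without stimulus. Its groups were apart, and its effect was smaller at 4 h (-1.35 ± 0.35, adjusted p = 0.0124 for the difference). Csf1, the growth factor of macrophages, rose with 3.73 ± 0.22. Of 23 cytokine and TNF receptors 8 rose and 9 fell (4 higher and 7 lower without the block). With 34.8% of members higher and 39.1% lower, against 28.7% and 26.9% of all genes tested, the list was not far from the background. Il2ra, the alpha chain of the IL-2 receptor, had levels of 4.08 and 4.99 at 2 h and 5.58 and 6.10 at 4 h with anti-IgM, against 1.45 and 2.20 at 2 h and 2.71 and 3.46 at 4 h without stimulus. It was higher at 4 h than at 2 h in both conditions, and the effect was 2.74 ± 0.10, adjusted p = 1.02e-11. Tnfrsf9, which encodes 4-1BB, rose with 2.39 ± 0.16, whereas Ifngr2, a chain of the interferon gamma receptor, fell with -2.04 ± 0.08 and Il9r with -1.70 ± 0.09. Of 18 interferon-stimulated genes 1 rose and 6 fell (1 higher and 5 lower without the block). With 5.56% of members higher and 33.3% lower, against 28.7% and 26.9% of all genes tested, falls were near the background and rises below it. Irf9, Stat2 and Irf7, which relay interferon signals, fell with effects of -1.06, -1.88 and -0.71, and Bst2, a restriction factor of enveloped viruses, rose with 0.72 ± 0.14.

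Naive B cell markers fell as well. Of the 9 tested 8 were lower and none higher (88.9% lower, against 26.9% of all genes tested). The summed linear level of the list ran from 2956 to 6880 over the anti-IgM libraries, against 10191 to 15025 over the unstimulated libraries. Cd79a, for example, had levels of 11.71 and 10.85 at 2 h and 10.20 and 9.61 at 4 h with anti-IgM, against 11.82 and 11.64 at 2 h and 12.28 and 11.79 at 4 h without stimulus, and the groups overlapped at 2 h and not at 4 h. Ebf1, a factor that specifies the B lineage, was the marker that was not called, with an effect of -0.17 ± 0.09, adjusted p = 0.108. Of 8 germinal centre markers tested, 3 rose (S1pr2, Rgs13 and Fas) and 3 fell, among them Mki67 and Top2a (37.5% of members higher and 37.5% lower, against 28.7% and 26.9% of all genes tested). Without the block 2 higher and 0 lower were called, so that all 3 falls were lost. The summed level of the T cell markers was 276.5 to 422.2 with anti-IgM, against 90.9 to 176.5 without stimulus, and nearly all of it came from Lck, a SRC-family kinase whose level was 8.50 and 8.07 at 2 h and 8.71 and 8.30 at 4 h with anti-IgM, against 7.43 and 7.06 at 2 h and 6.84 and 6.43 at 4 h without stimulus. The defining T cell transcripts Cd3d, Cd3e, Cd3g, Cd4 and Cd8a stayed at or below 1.17 in all 8 libraries. The sum of 6 dendritic cell markers was 44.3 to 96.9 with anti-IgM, against 32 to 48.2 without stimulus, and of 3 tested 2 were called higher, Zbtb46 and Flt3. The summed level of 6 plasma cell markers was 97.0 to 345.4 with anti-IgM, against 397.5 to 438.9 without stimulus, and of 5 tested 2 were called, Mzb1 and Sdc1, both lower. The part of these markers in the results above was not tested.

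**Figure D3:**
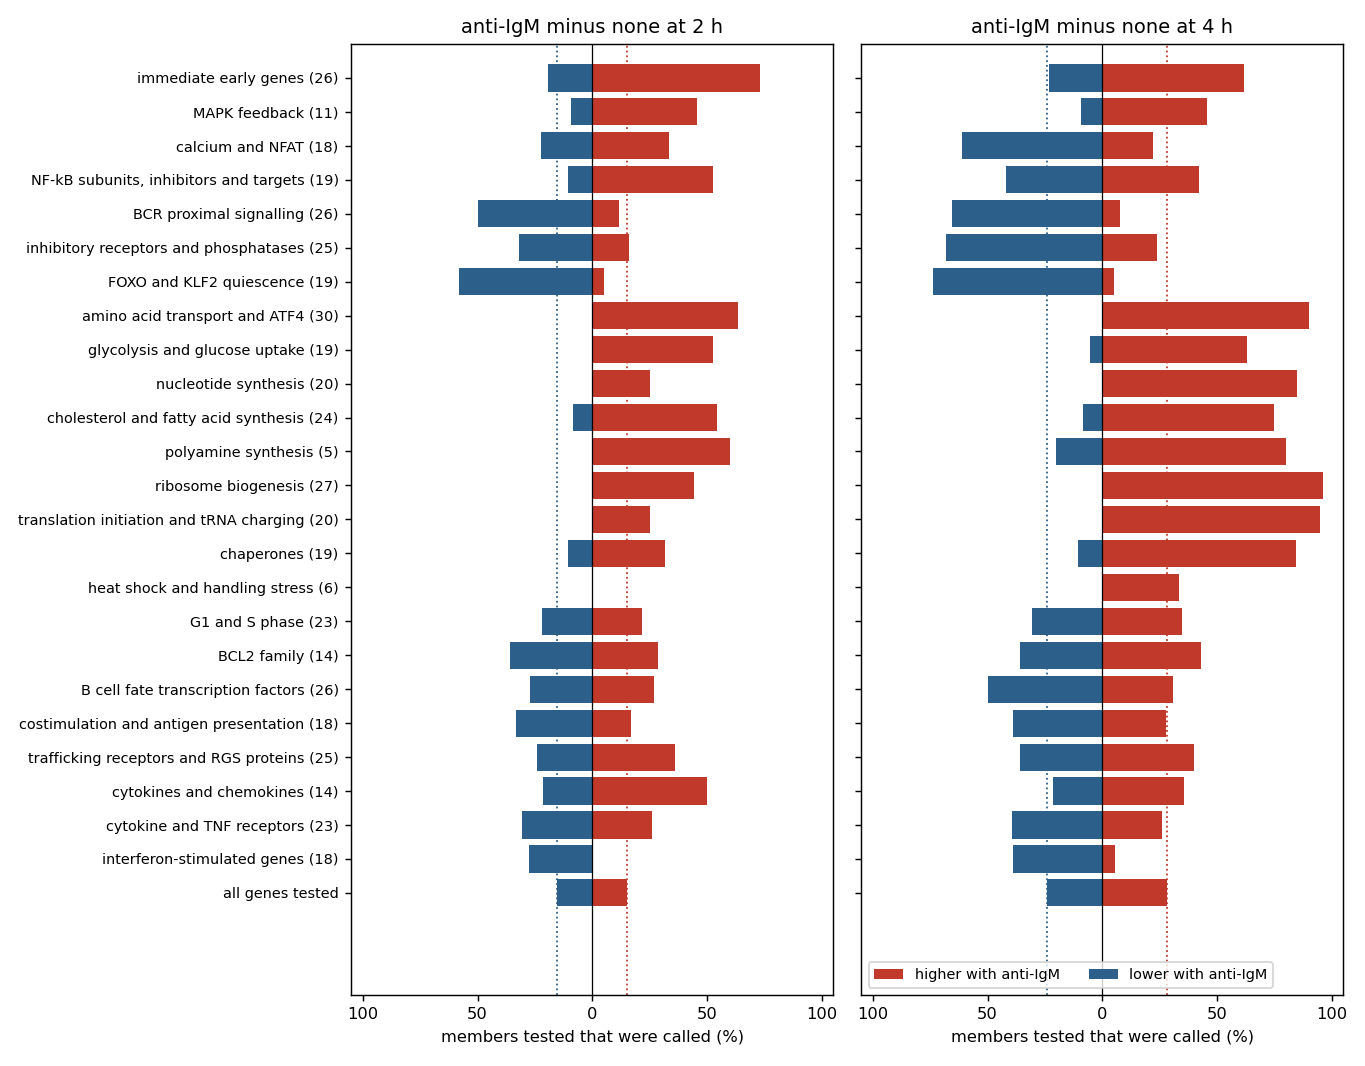
Share of the tested members of each gene list that was called higher (red, to the right) or lower (blue, to the left) with anti-IgM than without stimulus, at 2 h (left panel) and 4 h (right panel), in percent. Numbers in brackets are members tested and dotted lines mark the shares over all 10438 genes tested, 15.0% higher and 15.4% lower at 2 h and 28.1% and 24.1% at 4 h. The bars of ribosome biogenesis and of translation reach 26 of 27 and 19 of 20 members at 4 h.

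More genes were called at 4 h than at 2 h. At 2 h 30.4% were called, of which 1562 genes were higher (15.0%) and 1607 lower (15.4%), and at 4 h 52.2% were called, of which 2931 were higher (28.1%) and 2515 lower (24.1%). The median absolute effect over all genes was 0.35 at 2 h and 0.54 at 4 h. Of the rises called at 2 h 74.2% were called at 4 h too, which makes 39.5% of the 4 h rises, and of the falls called at 2 h 68.1% were called at 4 h, which makes 43.5% of the 4 h falls. The effects at the 2 times were compared within 1 fit, and for 1194 genes (11.4%) the effect at 4 h was higher than that at 2 h, for 1033 (9.90%) lower. Without the block the numbers were 77 and 143, and without single libraries the total ranged from 1332 (anti-IgM at 4 h numbered 1) to 1994, with 1470 when the unstimulated library numbered 1 at 4 h was left out. Among the genes called at 2 h, 200 rises and 145 falls had become smaller at 4 h by that test. Of the genes called at both times in opposite directions, 63 were higher at 2 h and lower at 4 h and 30 were lower at 2 h and higher at 4 h. Without the block 852 genes were called at 2 h and 2561 at 4 h, and without the unstimulated library numbered 1 at 2 h 1941 were called at 2 h. Counts of list members at 2 h, at 4 h and between the times were made with the block only, so they are less firm than those averaged over the times.

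For 3 of the 6 most positive differences between the times the larger change lay in the unstimulated cells. Hpgds, a prostaglandin D synthase, had levels of 6.75 and 6.09 at 2 h and 6.05 and 6.02 at 4 h with anti-IgM, against 7.09 and 6.16 at 2 h and 3.84 and 3.62 at 4 h without stimulus. The unstimulated libraries of 4 h stood more than 2 log2 units below all other libraries, and the effect at 4 h exceeded that at 2 h by 2.51 ± 0.39, adjusted p = 0.000643. Timm8a1, a mitochondrial import protein, had the same form, with means of 5.24 at 2 h and 4.82 at 4 h with anti-IgM, against 4.38 at 2 h and 1.82 at 4 h without stimulus, and Cd300lf, a receptor of the CD300 family, with 4.73 at 2 h and 4.74 at 4 h with anti-IgM, against 5.31 at 2 h and 3.38 at 4 h without stimulus. Alcam, an adhesion molecule, had means of 3.57 at 2 h and 7.24 at 4 h with anti-IgM, against 2.95 at 2 h and 4.58 at 4 h without stimulus, so that the larger change was in stimulated cells. Nek6, a mitotic kinase, and Pus7, a pseudouridine synthase, completed the 6, with changes in opposite directions in the 2 conditions and differences of 1.97 ± 0.29 and 1.94 ± 0.33. The calls of Hpgds and Alcam were lost without the block (adjusted p = 0.0876 and 0.384). Hpgds and Cd300lf are also transcribed by myeloid and mast cells. Of the 9 myeloid markers tested, 8 had a lower mean at 4 h than at 2 h with anti-IgM and 9 without stimulus, with median changes of -1.61 and -1.92, and their part in these differences was not tested.

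Of the 6 most negative differences, 4 belonged to genes whose effect at 2 h was not called. Dpp4, a surface peptidase also called CD26, had levels of 6.02 and 6.17 at 2 h and 2.94 and 4.01 at 4 h with anti-IgM, against 5.80 and 6.26 at 2 h and 6.25 and 7.08 at 4 h without stimulus. At 2 h the groups overlapped and at 4 h they were apart, with effects of 0.07 ± 0.20 and -3.19 ± 0.20 and a difference between them of -3.26 ± 0.29, adjusted p = 4.94e-06. Dgka, a kinase that removes diacylglycerol, had means of 5.91 at 2 h and 4.56 at 4 h with anti-IgM, against 6.95 at 2 h and 8.85 at 4 h without stimulus. Evl, an actin regulator, had an effect of 0.03 ± 0.20 at 2 h and of -3.01 ± 0.20 at 4 h. Prex1, an activator of RAC, had means of 4.85 at 2 h and 4.27 at 4 h with anti-IgM, against 4.29 at 2 h and 6.74 at 4 h without stimulus. Pecam1, an inhibitory adhesion receptor, and Ankrd44 had differences of -3.07 ± 0.24 and -3.21 ± 0.24. Pecam1 was also 1 of 5 listed markers of stromal or endothelial cells, and the only 1 of them tested. The summed linear level of these markers was 7.1 to 27.1 with anti-IgM, against 29.7 to 144.1 without stimulus, and the part of such cells was not tested. For all 6 the mean level was lower at 4 h than at 2 h with anti-IgM and higher at 4 h without stimulus. Without the block Ankrd44 and Prex1 were not called (adjusted p = 0.0776 and 0.112).

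**Figure D4:**
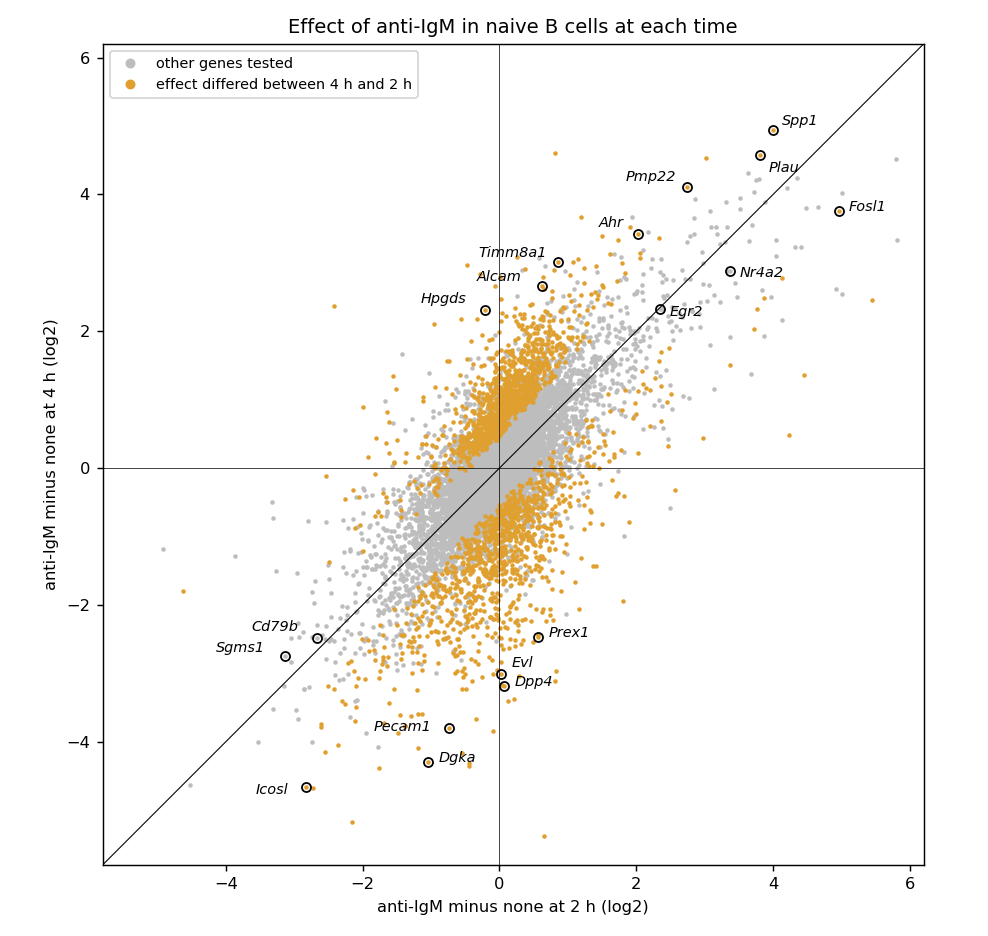
Effect of anti-IgM against no stimulus in naive B cells at 2 h (horizontal axis) and at 4 h (vertical axis), both log2, for the 10438 genes tested. Orange points are the 2227 genes whose effect differed between the times, the diagonal marks equal effects, and circles mark named genes. Egr2, Nr4a2 and Cd79b lie near the diagonal, Spp1 and Icosl farther from 0 at 4 h, and Dpp4, Evl and Prex1 between 0 and 1 at 2 h and below -2 at 4 h.

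The effect in naive cells was set against the same effect in GC B cells, from 8 libraries of the same design on the same scale, by the difference of the 2 effects. Of 10939 genes that passed the filter over the libraries of both cell types, 30.2% were called: 1651 had a higher effect in naive cells (15.1%) and 1657 a lower one (15.1%), and 428 and 569 were called without the block. Rgcc, a regulator of the cell cycle, had naive levels of 5.73 and 4.61 at 2 h and 3.77 and 2.03 at 4 h with anti-IgM, against 2.39 and 2.09 at 2 h and 0.69 and 0.26 at 4 h without stimulus, and GC levels of 3.81 and 4.29 at 2 h and 2.90 and 3.38 at 4 h with anti-IgM, against 4.84 and 5.79 at 2 h and 5.44 and 6.16 at 4 h without stimulus. It was higher with anti-IgM in all 4 naive pairs of the same time and number, although the naive groups overlapped across times, and lower in all 4 GC pairs, and the naive effect exceeded the GC effect by 4.64 ± 0.30, adjusted p = 1.04e-09. Ccnd2 had GC levels of 4.42 and 3.45 at 2 h and 3.52 and 2.72 at 4 h with anti-IgM, against 4.31 and 3.48 at 2 h and 5.18 and 4.35 at 4 h without stimulus. Its effect was 1.90 ± 0.09 in naive and -0.80 ± 0.08 in GC cells, a difference of 2.71 ± 0.12, adjusted p = 2.72e-12. Bcat1 rose in both, with a difference of 2.78 ± 0.14, as did Dusp14, with 2.69 ± 0.40. The difference for Sema7a, a semaphorin, was 2.68 ± 0.25 and was not called without the block (adjusted p = 0.335).

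The 5 most negative differences were genes that fell in naive cells. S1pr1 had GC levels of 7.13 and 6.73 at 2 h and 6.32 and 6.65 at 4 h with anti-IgM, against 6.70 and 6.31 at 2 h and 6.34 and 6.30 at 4 h without stimulus. Its GC groups overlapped, the GC effect of 0.30 ± 0.13 was not called, and the naive effect minus the GC effect was -2.68 ± 0.18, adjusted p = 1.95e-09. Sesn1 fell in naive cells and rose in GC cells (0.90 ± 0.12), with a difference of -3.19 ± 0.17, adjusted p = 7.01e-11. Cnr2, a cannabinoid receptor, and Themis2, an adaptor of receptor signalling in B cells, likewise fell in naive and rose in GC cells, with differences of -3.04 ± 0.17 and -2.91 ± 0.22. Sgms1 differed by -2.82 ± 0.13. Egr2 and Irf4 had effects whose difference was not called, -0.36 ± 0.23, adjusted p = 0.264 and 0.27 ± 0.16, adjusted p = 0.23, whereas Myc had the larger effect in naive cells (1.19 ± 0.28, adjusted p = 0.00283). Among the lists, the naive effect was higher for 20 of 30 amino acid and ATF4 genes and 15 of 27 ribosome biogenesis genes and lower for 16 of 25 inhibitory receptors and phosphatases. Over all genes tested, 15.1% were called in each direction.

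Levels with anti-IgM were also compared directly with levels with anti-CD40 in naive cells, from 4 libraries at the same times. The doses of the 2 antibodies are not given in the sources used here, so a difference holds for these cultures. Of the genes tested 34.0% were called: with anti-IgM 1823 genes were higher (17.5%) and 1721 lower (16.5%), and 833 and 620 were called without the block. Spp1 had levels of 8.31 and 7.48 at 2 h and 7.89 and 7.01 at 4 h with anti-IgM, against 2.15 and 2.07 at 2 h and -1.05 and -0.95 at 4 h with anti-CD40. The difference was 7.12 ± 0.14, adjusted p = 1.22e-14. Plau, Nr4a2, Pmp22 and Sh2d1b1 followed, with differences from 4.14 to 3.63. At the other end stood Ebi3, a cytokine subunit, with levels of 2.78 and 1.92 at 2 h and 1.31 and 1.22 at 4 h with anti-IgM, against 5.83 and 5.18 at 2 h and 7.70 and 7.51 at 4 h with anti-CD40, a difference of -4.75 ± 0.17, adjusted p = 5.21e-12. Icam1, an adhesion ligand, had 6.95 and 6.73 at 2 h and 6.53 and 6.14 at 4 h with anti-IgM, against 10.33 and 9.95 at 2 h and 10.63 and 10.01 at 4 h with anti-CD40, a difference of -3.64 ± 0.08, adjusted p = 9.29e-14. Fam129c, Bcl2l1 and Gadd45g, a stress-induced growth arrest gene, had differences of -3.67 ± 0.12, -3.42 ± 0.13 and -3.38 ± 0.20.

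Over all genes tested, 17.5% were higher with anti-IgM than with anti-CD40 and 16.5% lower. None of the 19 NF-kB genes was higher with anti-IgM, and 16 were lower, with a median difference of -1.41. Of the 26 immediate early genes, 21 were higher with anti-IgM and 5 lower, with a median difference of 1.39. Of 27 ribosome biogenesis genes 1 was higher and 1 lower, with a median difference of -0.04. Ccnd2 was lower with anti-IgM than with anti-CD40 (-1.81 ± 0.09, adjusted p = 1.64e-10) and Myc higher (0.87 ± 0.10, adjusted p = 5.16e-06). S1pr1 stood at 6.63 and 7.22 at 2 h and 4.09 and 4.36 at 4 h with anti-CD40, and its level with anti-IgM was higher by 2.21 ± 0.09.

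**Figure D5:**
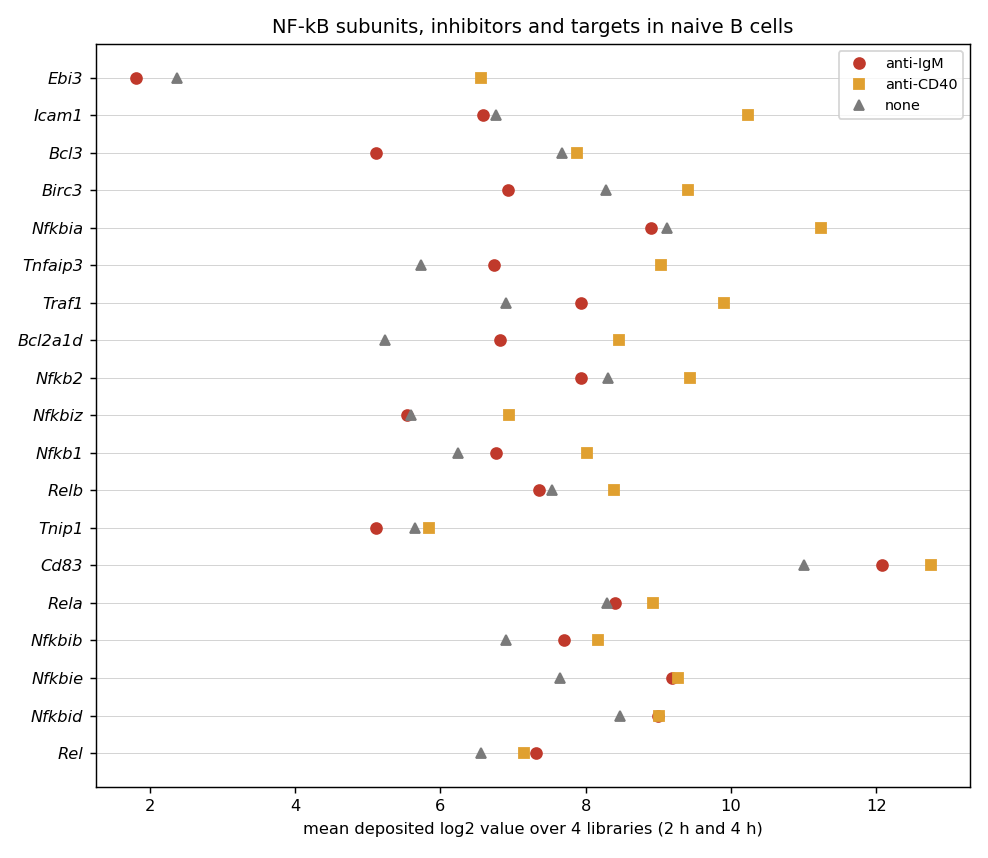
Mean deposited log2 value (horizontal axis) of 19 NF-kB subunits, inhibitors and targets in naive B cells over 4 libraries each of anti-IgM (circles), anti-CD40 (squares) and no stimulus (triangles), with times pooled. Genes run from the most negative difference between anti-IgM and anti-CD40 at the top, Ebi3 at -4.75, to Rel at the bottom.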

How the data were processed

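The authors deposited 1 table per library of log2 values per gene symbol, on a scale close to CPM, with the libraries brought to a near-common distribution. Per the submitters' processing notes, STAR 2.6.1a, Subread 2.0.1 with featureCounts, Trim Galore 0.6.5, FastQC 0.11.7 and limma were used, on mm10; their order and settings, and the way the values were scaled, are not given in the sources used here. Per the labels, RNA was extracted with RNeasy Plus and amplified by SMART-Seq chemistry for low input, and the spleen cells were purified with beads. Counts could not be recovered from the values, so depth is unknown and no counting interval is given. Replicate libraries of a group correlated across genes with r between 0.925 and 0.950.

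Genes with a value above 1 in at least 2 of the 8 libraries compared were tested with limma 3.58.1 (R 4.3.3, statmod 1.5.0; trend and robust moderation, two-sided, Benjamini-Hochberg adjustment over all genes tested). The 16 naive libraries deposited on 1 scale entered the fit (anti-IgM, anti-CD40, both together and no stimulus at 2 h and 4 h), with 1 level per stimulus and time and the replicate number as a block, which left 6 residual degrees of freedom. The anti-CD40 libraries are titled 4 and 5 and formed a block of their own. The comparison with GC B cells used 32 libraries and left 12. The block was used because same-numbered libraries shared gene-wise offsets. Deviations from the group means correlated between same-numbered libraries of the 4 groups compared with r between 0.719 and 0.819. The labels do not say what a number stands for. Among 2957 genes whose low values are shared across libraries of 1 number, the offsets of numbers 1 and 2 were equal and opposite within 0.01 for 2396 (81.0%). Whether the shared offsets came from the samples or from the processing was not tested. They do not show that libraries of 1 number are pairs of the same origin.

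The 12 largest rises and falls named had a mean value of at least 4 over the 8 libraries. They also had the same sign in all 4 pairs of same time and number. The 6 most positive and negative differences between times had the same limit on level and none on sign. For the 5 at each end against GC B cells and against anti-CD40, the mean was taken over the 2 groups with the higher level. These had no limit on sign either. From each list, up to 4 members with the smallest adjusted p and up to 2 that ran against its majority were named (with no limit on level). A further 16 genes were named always. Promoter and marker genes, Csf1, and members named as not passing a test were chosen after their values were seen. The members and lists were chosen with earlier results of these data known. Of the markers listed, Ighd, Trac and Hbb-bt are not analysed here. Some genes that the naming rule picks are not reported here. Gene coordinates are from GENCODE and promoter windows from RefSeq, both GRCm38.

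On simulated data, 100 genes were changed by 1 and 100 by 2 on the log2 scale. The fit for the mean effect over 10438 genes recovered 76 and 98 and made 7 false calls among 10238 unchanged genes. The simulated errors were independent and drawn from the fitted model with its block, so a low number of false calls was built in. In the data 5798 genes were called, far more than were changed here. The simulation therefore cannot show whether those calls, the block or the scaling are right. Alternatives were no block, no filter, a stricter filter, a pseudocount of 1, cyclic loess, equal library means, plain moderation, other sets of libraries, each library left out and, added after seeing the data, the anti-CD40 libraries numbered by their file headers.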

Additional observations from a re-analysis of the deposited data

Results flagged for a closer look

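For 12 named genes the anti-IgM effect in naive B cells differed between 4 h and 2 h by the test of that difference in limma. The effect at 4 h minus that at 2 h was 2.51 for Hpgds, 2.15 for Timm8a1, 2.04 for Alcam, 1.97 for Nek6, 1.94 for Pus7 and 1.94 for Cd300lf. In the other direction it was -3.26 for Dpp4, -3.25 for Dgka, -3.21 for Ankrd44, -3.07 for Pecam1, -3.03 for Evl and -3.02 for Prex1.

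For 10 named genes the effect in naive B cells differed from that in GC B cells by the test of that difference. The naive effect minus the GC effect was 4.64 for Rgcc, 2.78 for Bcat1, 2.71 for Ccnd2, 2.69 for Dusp14 and 2.68 for Sema7a. It was -3.19 for Sesn1, -3.04 for Cnr2, -2.91 for Themis2, -2.82 for Sgms1 and -2.68 for S1pr1.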

How the results depend on the processing

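Counts of called genes depended most on the replicate block, which pairs libraries of the same number. Without it 2845 genes were called for the mean effect, 852 at 2 h, 2561 at 4 h, 220 for the difference between times, 997 for naive minus GC and 1453 for anti-IgM minus anti-CD40, and the 2845 were all among the 5798 called with it, in the same direction. Without a filter on low values the difference between times was called for 1382 genes. Leaving out 1 library at a time gave 4908 to 5452 genes for the mean effect, 1941 to 3041 at 2 h, 4059 to 5600 at 4 h, 1332 to 1994 for the difference between times, 2640 to 3202 for naive minus GC and 2687 to 3533 for anti-IgM minus anti-CD40. The 1941 at 2 h came without the unstimulated library numbered 1 at 2 h, and the difference between times was called for 1332 genes without the anti-IgM and 1470 without the unstimulated library numbered 1 at 4 h. After cyclic loess 995 of these differences were positive and 1143 negative, against 1194 and 1033 on the deposited scale. The causes were not tested.

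Of 3164 values of 170 results on named genes under these alternatives, 3122 kept their direction and their side of the threshold, 41 kept their direction but lost the call, 1 gained it and 0 reversed. Without the block 19 of 170 lost the call. Apart from the genes named always, the named genes were picked among those called in the main fit, which favours a kept call. Over all genes, 2845 of the 5798 calls of the mean effect were kept without the block. Cd69 gained a call after cyclic loess, with an effect of -0.25. Numbering the anti-CD40 libraries by their file headers gave 5890 genes for the mean effect and changed no call of a named gene. With 2 libraries a group and no counts, differences between low values are the least certain.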
